A study of Homo sapiens with 2 samples.

Results

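The genes described here carry choline into the cell and build it into phosphatidylcholine, and 1 of them encodes a protein that moves phosphatidylcholine between membranes. They are SLC44A1, SLC44A2, SLC44A3, SLC44A4, CHKA, CHKB, PCYT1A, CHPT1, CEPT1 and PCTP. These 10 genes were picked on measured values, the differences between the 2 arrays described below, which are therefore given as a description. All probe sets that the platform annotation gives to exactly 1 of them were taken: 25 probe sets of 10 genes, out of 54675 probe sets and 19775 genes with a probe set of their own. C4-2, a human prostate cancer line derived from LNCaP, was transfected, and total RNA taken 48 h later was hybridised to Affymetrix arrays. The cells had received miR-99a, a microRNA, or si-GL2, a small interfering RNA named for a luciferase reporter. Both groups were transfected with RNAiMax, a lipid reagent, and grown in RPMI medium with fetal bovine serum, so the comparison holds no untransfected cells. Effects of miR-99a and effects of si-GL2 therefore cannot be told apart in any difference below. Each group is 1 array of 1 cell line, and none of the differences below has a replicate error or a p-value.

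Choline is charged and enters cells through carriers, among them the choline transporter-like proteins of the SLC44 family. Inside, a choline kinase makes phosphocholine, the next enzyme activates it to CDP-choline, and a phosphotransferase joins the phosphocholine to diacylglycerol. This route, the Kennedy pathway, supplies most phosphatidylcholine, the main membrane phospholipid of mammalian cells. Choline uptake and choline kinase activity are high in many prostate tumours, and labelled choline is used as an imaging tracer for them.

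MiR-99a acts on messenger RNAs mainly through its seed, bases 2 to 8. The mature strand is shown because its transfection defines the miR-99a group. The labels do not name the arm; the 5p arm, the usual meaning of the plain name, is printed from RefSeq (GRCh38.p14), where it lies at chr21:16539101-16539122 on the plus strand. Capitals mark the seed, which miR-99b-5p and miR-100-5p share.
hsa-miR-99a-5p: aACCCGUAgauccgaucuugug
hsa-miR-99b-5p: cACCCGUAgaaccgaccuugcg
hsa-miR-100-5p: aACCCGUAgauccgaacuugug

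PCTP, the phosphatidylcholine transfer protein gene, was 1.26 above the control array on the log2 scale and was the 1 member past the size rule of 1.5-fold. By their brightest probe sets the other 9 members did not reach it. SLC44A4, of the choline transporter-like family, was at 0.42, the choline carrier gene SLC44A1 at -0.55 and the choline kinase gene CHKA at -0.53. CHPT1, which encodes the last enzyme of the route, was at -0.19, although its other 2 probe sets were at -0.85 and -0.68. The remaining members, SLC44A2, SLC44A3, CHKB, PCYT1A and CEPT1, lay between -0.27 and 0.14. RNA came from whole cultures, in which fewer cells with a transcript and less of it per cell cannot be told apart. Differences are log2(signal + 16), miR-99a minus si-GL2, so a negative value means a lower signal after miR-99a. Each gene is first read by its brightest probe set, ranked by the mean of both arrays. Expressed means that this mean lay at or above the median of the whole array, which corresponds to a signal of 47.2. The size rule for a higher or lower gene was 1.5-fold, which is 0.58 on this scale and is not a test.

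All 10 members were expressed by their brightest probe sets, 7 of them below 0, where 56.3% of all expressed genes were, and 3 above. Of the 10, 1 was at least 1.5-fold higher and 0 were at least 1.5-fold lower. Over 12218 expressed genes, 148 (1.21%) were that much higher and 354 (2.90%) that much lower. The members' median difference was -0.12, against -0.03 over all expressed genes, whose SD was 0.26. Counted by probe set, 21 of the 25 were expressed, 15 of them below 0 and 6 above. Their median was -0.18, against -0.02 for all 22401 expressed probe sets of 1 gene, of which 54.0% were below 0. By this count 3 passed 1.5-fold downward, where 2.76% of those 22401 did, and 2 passed it upward, where 1.53% did. The 3 lower ones are 1 probe set of SLC44A1 and 2 of CHPT1, and the 2 higher ones belong to PCTP and SLC44A4. Probe sets of a gene read the same RNA and are not independent, and the members were chosen with these differences known, so the counts describe the list and support nothing.

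**Figure D1:**
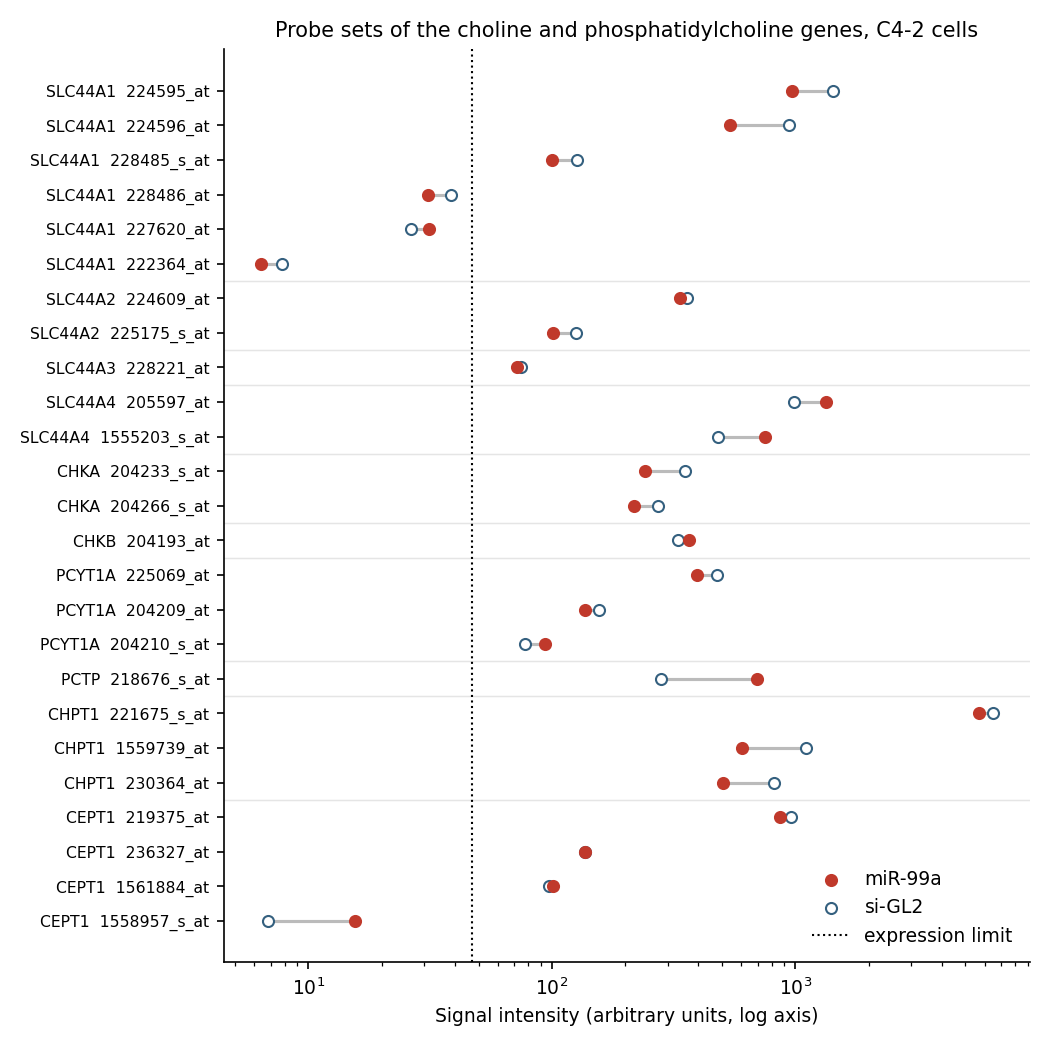
Signal of each of the 25 probe sets on the miR-99a array (filled points) and the si-GL2 array (open points), on a log axis in arbitrary units, with a dotted line at the expression limit of 47.2. The widest gap above the limit is that of PCTP, 696 after miR-99a and 281 after si-GL2, and 4 probe sets, 3 of SLC44A1 and 1 of CEPT1, lie below the limit.

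The stretch of 250 bases before the annotated start is shown for the 4 genes with a probe set past 1.5-fold, 2 with such a probe set above the control and 2 below, so that their promoters can be set side by side. RefSeq sequence (GRCh38.p14) was matched by symbol for 9 of the 10 members, with 13 start sites; for SLC44A4, which has 2, the farther upstream start is shown. Each is printed along its gene's own strand. Capitals mark exact matches on either strand to the GC box (GGGCGG), the CCAAT box (CCAAT), the E-box (CACGTG) and the TATA box (TATAAA), and matches that overlap run together.
PCTP, chr17:55750801-55751050, plus strand: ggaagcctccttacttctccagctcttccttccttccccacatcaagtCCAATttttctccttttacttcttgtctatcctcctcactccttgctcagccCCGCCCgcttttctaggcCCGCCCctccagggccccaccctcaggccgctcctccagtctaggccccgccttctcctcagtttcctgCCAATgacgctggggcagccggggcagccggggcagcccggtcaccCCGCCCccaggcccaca
SLC44A4, chr6:31878998-31879247, minus strand: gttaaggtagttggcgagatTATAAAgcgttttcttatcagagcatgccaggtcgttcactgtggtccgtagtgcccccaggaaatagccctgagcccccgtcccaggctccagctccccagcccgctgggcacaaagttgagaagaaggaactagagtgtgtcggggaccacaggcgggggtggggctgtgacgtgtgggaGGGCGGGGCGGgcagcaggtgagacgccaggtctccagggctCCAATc
SLC44A1, chr9:105244401-105244650, plus strand: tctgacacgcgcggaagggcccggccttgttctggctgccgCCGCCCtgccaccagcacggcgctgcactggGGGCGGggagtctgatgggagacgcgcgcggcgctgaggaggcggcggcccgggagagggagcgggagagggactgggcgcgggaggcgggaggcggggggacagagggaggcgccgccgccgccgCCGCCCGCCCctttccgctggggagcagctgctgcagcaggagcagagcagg
CHPT1, chr12:101697390-101697639, plus strand: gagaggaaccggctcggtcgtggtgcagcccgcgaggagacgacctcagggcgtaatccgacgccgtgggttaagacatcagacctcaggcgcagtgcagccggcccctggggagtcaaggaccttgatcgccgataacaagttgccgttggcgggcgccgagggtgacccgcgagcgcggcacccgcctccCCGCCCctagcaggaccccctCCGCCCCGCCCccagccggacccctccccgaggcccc

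In the windows shown, PCTP had 3 GC box matches and 2 CCAAT box matches. SLC44A4 had 2 GC box matches, which overlap, 1 CCAAT box match and 1 TATA box match. The SLC44A4 window that is not shown had 0 matches to any of these motifs. SLC44A1 had 4 GC box matches and CHPT1 had 3, in each case with 1 overlap, and neither had a match to the other motifs. GC boxes occurred in 9 of the 13 member windows and in 42.6% of all 35116 promoter windows of this length. CCAAT boxes occurred in 4 of 13 and in 32.0%, and the unprinted windows with them belong to SLC44A2 and CHKB. TATA boxes occurred in 2 of 13 and in 10.7%, and E-boxes in 0 of 13 and in 6.34%. The 4 printed windows were 63.6% (PCTP), 61.2% (SLC44A4), 77.6% (SLC44A1) and 72.0% (CHPT1) G and C, against a median of 58.0% over all windows. GC box letters stood in all 4 printed windows. A match is a string of letters and not a measured site.

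SLC44A1, also called CTL1, is the widely expressed choline carrier of the plasma membrane and mitochondria. Its brightest probe set (224595_at) read 969 after miR-99a and 1422 after si-GL2, or -0.55, just short of 1.5-fold. The next (224596_at) was 537 after miR-99a and 946 after si-GL2, or -0.80. Another, dimmer one (228485_s_at) was 100.5 after miR-99a and 127 after si-GL2, or -0.29. All 3 expressed probe sets were therefore lower on the miR-99a array, by unequal amounts. The other 3 probe sets lay below the expression limit, with signals from 6.37 to 31.4 after miR-99a and from 7.79 to 38.4 after si-GL2 and differences between -0.21 and 0.16. Of the expressed genes, 3.56% were at or below the -0.55 of its brightest probe set. SLC44A1 has been listed among predicted targets of the miR-99 family; its transcript was not searched for the seed shown above, since no transcript sequence was used.

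SLC44A2, or CTL2, a relative that carries the human neutrophil antigen HNA-3, differed little by its brightest probe set (224609_at), at 336 after miR-99a and 360 after si-GL2 (-0.10). Its dimmer probe set (225175_s_at) was 101 after miR-99a and 125 after si-GL2 (-0.28). SLC44A3, a little studied member of the family with 1 probe set (228221_at), was near the expression limit at 71.8 after miR-99a and 75.1 after si-GL2 (-0.05). Both genes were thus slightly lower, within the SD over expressed genes in the case of each brightest probe set.

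SLC44A4, or CTL4, an epithelial member that transports thiamine pyrophosphate in the colon, went the other way. Its brightest probe set (205597_at) was 1333 after miR-99a and 991 after si-GL2, which differ by 0.42. Its other probe set (1555203_s_at) was 750.3 after miR-99a and 482 after si-GL2, or 0.62, just past 1.5-fold. Both probe sets were higher after miR-99a, and 3.25% of expressed genes were at or above the 0.42 of the brightest. Within the SLC44 family the brightest probe sets therefore ran from -0.55 for SLC44A1 to 0.42 for SLC44A4, with SLC44A2 and SLC44A3 between them.

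Choline kinase has 2 genes, and their differences had opposite signs. CHKA, the isoform that is raised in many tumours, had its brightest probe set (204233_s_at) at 241 after miR-99a and 354 after si-GL2, or -0.53. Its other probe set (204266_s_at) was 217 after miR-99a and 274 after si-GL2, or -0.31. Both probe sets were lower without reaching 1.5-fold, and 3.91% of expressed genes were at or below -0.53. CHKB, the isoform whose loss causes a congenital muscular dystrophy, was 365 after miR-99a and 330.3 after si-GL2 by its 1 probe set (204193_at), a difference of 0.14. The CHKB value is within the SD over expressed genes, of which 21.8% were at or above it.

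PCYT1A encodes the main enzyme that turns phosphocholine into CDP-choline, the rate-limiting step of the route. Its brightest probe set (225069_at) was 394 after miR-99a and 478 after si-GL2 (-0.27), and the next (204209_at) was 137 after miR-99a and 157 after si-GL2 (-0.18). The dimmest (204210_s_at) was 93.8 after miR-99a and 77.3 after si-GL2 (0.23). The probe sets did not share a sign, and their mean was -0.07.

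CHPT1, choline phosphotransferase, makes phosphatidylcholine in the Golgi and had the widest gap between expressed probe sets among the members. Its brightest probe set (221675_s_at) was 5696 after miR-99a and 6497 after si-GL2, which differ by -0.19. Its second (1559739_at) was 606 after miR-99a and 1106 after si-GL2, or -0.85. Its dimmest (230364_at) was 504 after miR-99a and 816 after si-GL2, or -0.68. All 3 were lower after miR-99a, but only the dimmer pair passed 1.5-fold. As a mean over its probe sets CHPT1 was at -0.57, and at -0.85 when probe sets of the _s_ kind, which match several transcripts, were left out. The spread of differences also narrowed with brightness: the SD was 0.11 over 582 expressed probe sets with a mean signal above 4000, where the brightest CHPT1 probe set lies, and 0.28 over 8460 with a mean between 200 and 1000.

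CEPT1, which makes phosphatidylcholine and phosphatidylethanolamine in the endoplasmic reticulum, was near 0. Its brightest probe set (219375_at) was 869 after miR-99a and 957 after si-GL2 (-0.14), and 236327_at was 137 after miR-99a and 138 after si-GL2 (-0.01). Probe set 1561884_at was 101 after miR-99a and 97.1 after si-GL2 (0.05). The 3 expressed probe sets thus lay within 0.18 of each other. A probe set below the limit (1558957_s_at) was 15.6 after miR-99a and 6.82 after si-GL2 (0.47), which lifted the mean over all 4 to 0.09.

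**Figure D2:**
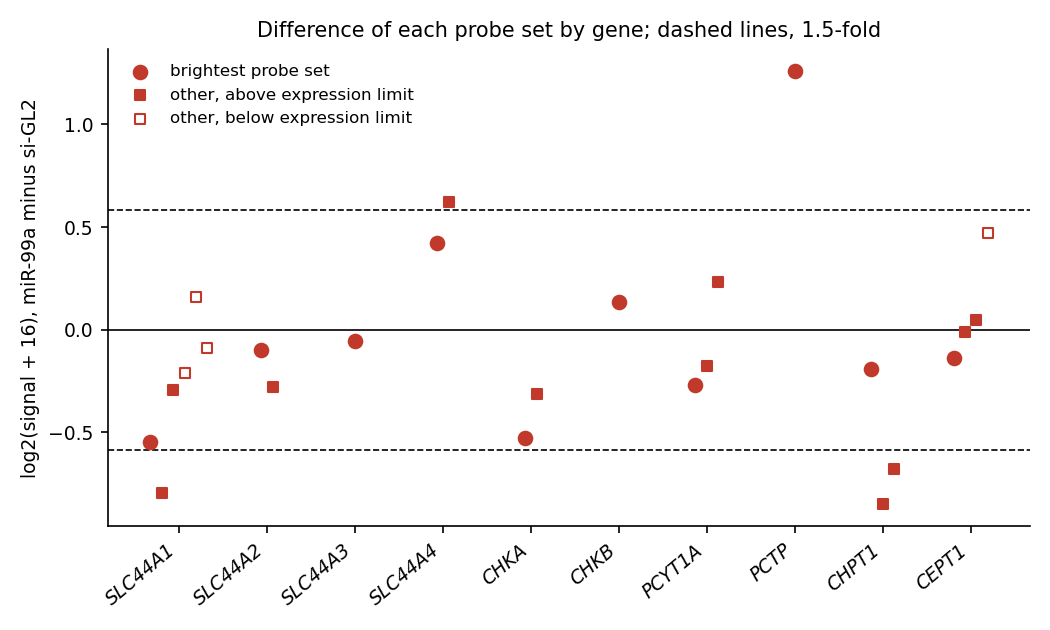
Difference of each probe set by gene, in log2(signal + 16), miR-99a minus si-GL2; circles are the brightest probe set, filled squares others above the expression limit and open squares those below it, with dashed lines at 1.5-fold. SLC44A1, SLC44A2, CHKA and CHPT1 have all expressed probe sets below 0, and so has SLC44A3 with its 1 probe set. SLC44A4 has both above 0, and PCTP stands alone at 1.26.

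PCTP, also called STARD2, binds 1 phosphatidylcholine molecule in its START domain and moves it between membranes. Its 1 probe set (218676_s_at) read 696 after miR-99a and 281 after si-GL2. The signals stood in a ratio of 2.48, and the difference in log2(signal + 16) was 1.26. That difference was the 4th highest of the 12218 expressed genes, and PCTP was the 1 member past the size rule. With 1 probe set, also of the _s_ kind, the gene has no check within the arrays.

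How far probe sets of the same gene differ gives a scale for these values, although it is no replicate error. Over the 5842 genes with at least 2 expressed probe sets, the gap between the highest and lowest difference had a median of 0.22. The gap was 0.66 for CHPT1, 0.51 for SLC44A1 and 0.50 for PCYT1A, which have 3 expressed probe sets each, against a median of 0.25 over the 1549 genes with 3. Of those 1549 genes, 5.75% had a gap at least as wide as CHPT1. The gap of CEPT1, which also has 3, was 0.18. Those of CHKA (0.21), SLC44A4 (0.20) and SLC44A2 (0.18) rest on 2 expressed probe sets each. Fewer probe sets tend to give a narrower gap, and no median was taken over genes with 2. Hybridisation spikes, added alike to every array, differed by between -0.12 and 0.06 over 18 probe sets, which covers hybridisation and scaling alone.

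**Figure D3:**
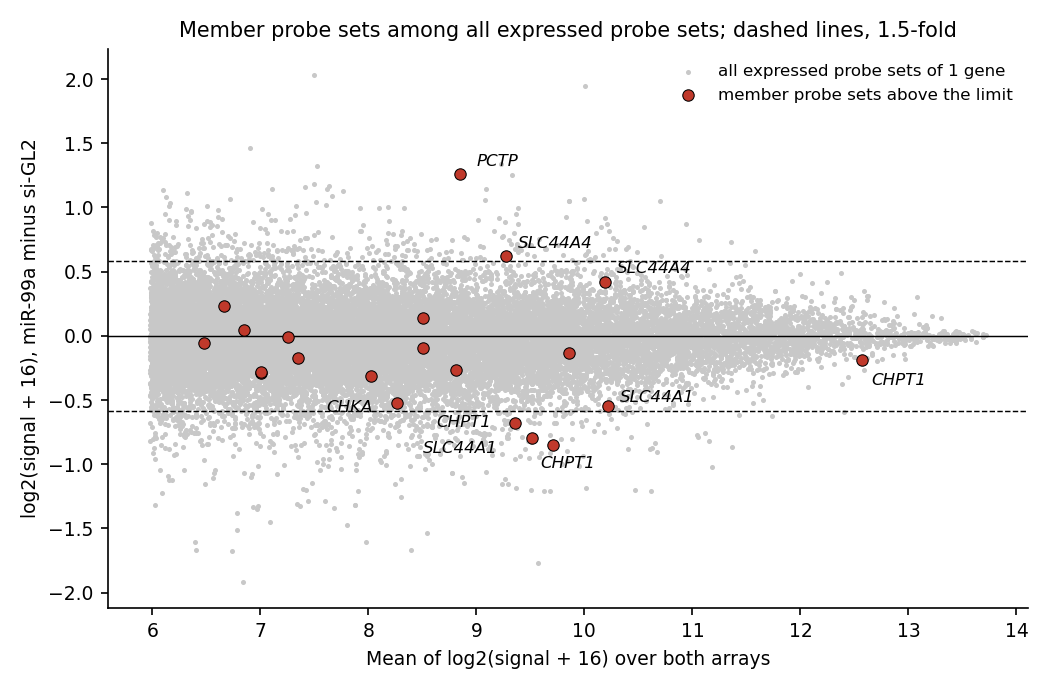
Difference in log2(signal + 16), miR-99a minus si-GL2, against the mean level over both arrays, for all 22401 expressed probe sets of 1 gene (grey) and the 21 expressed member probe sets (red), with dashed lines at 1.5-fold. PCTP lies at the upper edge of the cloud at its level, the SLC44A1 and CHPT1 probe sets at -0.80, -0.85 and -0.68 lie below the lower line, and the brightest CHPT1 probe set lies where the cloud is narrow.

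Other genes of choline and phospholipid metabolism, on 5 lists, held no gene as far from the control as PCTP. Of 56 genes, 52 had a probe set, the other 4 were not analysed here, and 41 were expressed. Of these 41, 1 was at least 1.5-fold lower, where 2.90% of all expressed genes were, and 0 were higher, where 1.21% were. Their median difference was -0.06, with 25 below 0, where 56.3% of all expressed genes were, and 16 above.

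Among other choline carriers 3 of 6 were expressed, with a median of -0.18. The lowest was FLVCR1, a heme and choline transporter, at 1069 after miR-99a and 1229 after si-GL2 (-0.20), and the highest was the carnitine carrier SLC22A5 (0.05). The high-affinity neuronal choline transporter SLC5A7, named for its role outside the rule for named genes, was below the limit, at 11.1 after miR-99a and 26.2 after si-GL2. On the list of the ethanolamine and serine branch, which makes the sister phospholipids, 7 of 8 genes were expressed with a median of -0.06 and 0 past 1.5-fold. The 1 below the limit was PCYT1B, at 42.2 after miR-99a and 44.4 after si-GL2. This relative of PCYT1A, named for its role, acts in the choline route although it was placed on this list. PTDSS2, a phosphatidylserine synthase, was lowest at 208 after miR-99a and 266 after si-GL2 (-0.33), and the ethanolamine kinase ETNK2 was highest (0.11). PEMT, which methylates phosphatidylethanolamine to phosphatidylcholine and is likewise named for its role, was 529.6 after miR-99a and 554 after si-GL2 (-0.06). By brightest probe sets, no expressed gene of these 2 lists was as far below 0 as SLC44A1 or CHKA.

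Genes that supply or compete for diacylglycerol had a median of 0.18 over 9 expressed genes, with 5 above 0. LPIN1, a phosphatidate phosphatase that makes diacylglycerol, was highest at 2187 after miR-99a and 1516 after si-GL2 (0.52). Its 3 probe sets lay between 0.40 and 0.89, with a mean of 0.60 that is past 1.5-fold. Its relative LPIN2 was lowest, at 359.6 after miR-99a and 457 after si-GL2 (-0.33).

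Genes of phosphatidylcholine remodelling and breakdown had a median of -0.03 over 16 expressed genes, with 0 past 1.5-fold. LPCAT4, a lysophospholipid acyltransferase, was highest at 169 after miR-99a and 109 after si-GL2 (0.57). It passed 1.5-fold with a pseudocount of 1 (0.63) and after quantile normalization (0.60). Its 5 probe sets lay between -0.05 and 0.57, with a mean of 0.29 that is short of 1.5-fold. GPCPD1, which releases choline from glycerophosphocholine, was lowest at 182 after miR-99a and 263 after si-GL2 (-0.49), with all 3 of its probe sets below 0.

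Genes that use or transfer phosphatidylcholine and its products had a median of -0.21 over 6 expressed genes, 5 of them below 0. SGMS2, a sphingomyelin synthase that takes the phosphocholine group of phosphatidylcholine, was the 1 gene of the 5 lists past 1.5-fold, at 253 after miR-99a and 416 after si-GL2 (-0.68). Its other expressed probe set (243141_at) was at -0.07, from 83.7 after miR-99a and 88.7 after si-GL2, and its mean over 3 probe sets was -0.37. STARD7, a START domain protein that carries phosphatidylcholine to mitochondria, was highest at 2377 after miR-99a and 2049.9 after si-GL2 (0.21). Like PCTP it was higher after miR-99a, by a far smaller amount that is within the SD over expressed genes. STARD10 of the same list, also named after its values were seen, was lower by its brightest probe set (-0.15). Its 3 probe sets lay between -0.27 and 0.24. The ceramide transfer protein gene CERT1, named after its values were seen, was 681 after miR-99a and 934 after si-GL2 (-0.45), and its 4 probe sets lay between -0.65 and -0.45.

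**Figure D4:**
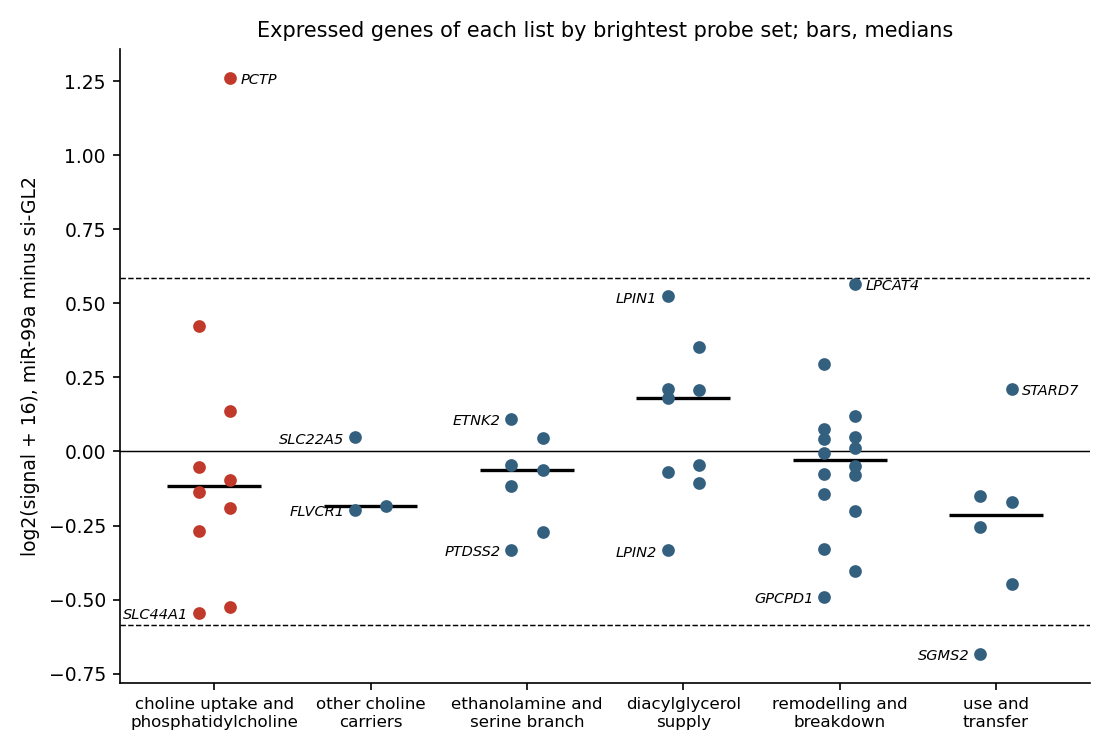
Difference of each expressed gene by its brightest probe set, in log2(signal + 16), miR-99a minus si-GL2, for the 10 members (red) and the 5 other lists (blue), with bars at the medians and dashed lines at 1.5-fold. PCTP at 1.26 and SGMS2 at -0.68 are the points outside the dashed lines, and the list medians run from -0.21 to 0.18.

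The arrays carried the markers of prostate luminal cancer cells. All 7 such markers analysed were expressed, and their signals summed to 28266 after miR-99a and 28250.4 after si-GL2. The near-equal sums cover differences in both directions, from -0.20 for KLK2 to 0.31 for KRT8. The 2 basal markers KRT5 and KRT14 were below the limit. Of the markers of other cell types, 4 of 5 fibroblast, 1 of 4 leukocyte and 1 of 4 endothelial genes passed the limit. Their summed signals were 499.7, 132 and 249 after miR-99a, against 429, 87.3 and 250.04 after si-GL2. Their part in the members' differences was not tested. Passing the limit, which is the array median, does not by itself show transcription. The leukocyte marker CD3E passed it at 73.2 after miR-99a and 52.8 after si-GL2, near the level of SLC44A3. Array medians were 47.8 after miR-99a and 47.4 after si-GL2.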

How the data were processed

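Total RNA of 2 cultures of C4-2 cells was isolated with Trizol, and biotin labelling followed Affymetrix, per the labels' protocols. The table the authors deposited holds linear signal intensity values, 1 for each probe set on each array, from 0.70 to 13495 for miR-99a and from 0.73 to 13399 for si-GL2. How probes were summarised and scaled is not given in the sources used here, and the number of arrays limits the precision. Signals were used as deposited and turned into log2(signal + 16), which understates differences of dim probe sets. Genes came from the platform annotation, in which 41091 probe sets carry 1 gene name; 41037 were found by Entrez identifier in a GRCh38.p14 gene table with 0 changes of symbol. Probe sets naming several genes or no gene were left out. With 1 array per group no test was made. The 1.5-fold size rule was tried on simulated data in which changed genes were set to exactly 2-fold. The simulated noise was smaller than the spread between these arrays. That trial therefore checks the calculation and cannot show how many calls between these arrays are false. Named genes are all members, and of each other list the highest, the lowest and any gene past 1.5-fold; others are marked where named. The members, lists and alternatives were chosen with earlier results of these data known. Alternatives were pseudocounts of 1 and 64, centring, quantile normalization, the mean over probe sets, no _x_ or _s_ probe sets, other expression limits and a 2-fold rule. Python 3.11.15, numpy 2.4.6 and pandas 2.3.3 were used.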

Additional observations from a re-analysis of the deposited data

How the results depend on the processing

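No paired analysis was possible because each group holds 1 array and the labels give no replicate numbers. Of the 10 members, 9 kept the sign of their difference under every pseudocount, normalization and probe set alternative that gave a value. Much of this was fixed in advance. A pseudocount cannot reverse the sign of a difference, and centring used a median difference of only -0.0035. For a gene with 1 probe set the mean over probe sets repeats the reported value. CEPT1, at -0.14 as reported, was at 0.09 as a mean over its probe sets. PCTP stayed past 1.5-fold, between 1.14 and 1.31, wherever it had a value. Those values all come from the same signals of its 1 probe set, so they are no independent check. Without _x_ and _s_ probe sets PCTP and CHKA had no value, so 0 members were higher and 1, CHPT1, was lower. The mean over probe sets put CHPT1 at -0.57, short of 1.5-fold. The number of members past the rule was as reported under the other 8 alternatives.

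Counts over all expressed genes, 354 lower and 148 higher as reported, moved to 179 and 74 with a pseudocount of 64, 211 and 97 with probe sets averaged, 729 and 573 with no expression limit, 203 and 73 with the limit at the 75th percentile, and 41 and 17 at 2-fold. They moved less, to 459 and 207 with a pseudocount of 1 and 287 and 165 after quantile normalization. Centring gave 344 and 149, and leaving out _x_ and _s_ probe sets gave 323 and 120. Of the other lists, 1 gene was lower and 0 higher as reported. With a pseudocount of 1 and after quantile normalization 1 was higher, LPCAT4. With probe sets averaged 0 were lower and 1 higher, LPIN1. Without _x_ and _s_ probe sets 2 were lower, SGMS2 and CERT1. With no limit 2 were lower and 1 higher, from dim probe sets of SLC5A7 and BHMT beside SGMS2. At 2-fold 0 were lower. The cause of these moves was not tested, apart from the 2-fold rule and the limits, which change the genes counted by construction. The precision is limited by 1 array per group.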

Other observations

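Probe sets of transcripts beside 2 members were read as well, outside the comparison. CHKB-DT, a non-coding transcript divergent from CHKB, was 362 after miR-99a and 535 after si-GL2 by its brighter probe set (238557_at), a difference of -0.54, while CHKB itself was at 0.14. Its dimmer probe set (240954_at) was 57.4 after miR-99a and 63.1 after si-GL2, or -0.11. A probe set that the annotation gives to both the CHKB-CPT1B readthrough transcript and CPT1B (210069_at) was 97.3 after miR-99a and 132 after si-GL2, or -0.38, and the other (210070_s_at) was below the limit. SLC44A3-AS1, antisense to SLC44A3, was below the limit at 17.7 after miR-99a and 16.6 after si-GL2. Past 1.5-fold there were 0 of these 5 probe sets.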
